A study of Mus musculus with 10 samples.

Results

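Cholesterol is built from acetyl-CoA through mevalonate, isopentenyl diphosphate, squalene and lanosterol. The genes of this pathway are switched on together by the transcription factor SREBP-2 when sterols in the endoplasmic reticulum fall, and skin makes much of its own cholesterol for the permeability barrier, sebum and hair. Transcript levels of 8 enzymes of the pathway were followed here, *Hmgcs1*, *Mvd*, *Idi1*, *Fdft1*, *Sqle*, *Lss*, *Cyp51* and *Dhcr7*, chosen by gene symbol from the 24454 genes of the table, and all 8 passed the filter on low counts. None of them passed an adjusted p of 0.05 between the genotypes in edgeR's quasi-likelihood test, at log2 fold changes from -0.23 to 0.34. Of all 15543 tested genes, 34.3% passed. *Lss* did pass in some alternative fits, among them DESeq2 (adjusted p = 0.032) and limma-voom (0.049).

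RNA was sequenced from whole-thickness back skin of 5 WT mice and 5 Zfp36ΔARE mice, 1 library per mouse. Zfp36ΔARE mice carry a knock-in at the endogenous *Zfp36* locus that removes an AU-rich stretch of its 3′-UTR, in every tissue and on a C57BL/6 background, and WT were littermates. *Zfp36* encodes tristetraprolin (TTP), which binds AU-rich elements in mRNAs and promotes their decay. Mice of both groups received 400 nmol of the mutagen DMBA at 7 weeks of age and then 10 nmol of the phorbol ester TPA 2 times a week for up to 20 weeks, each in 0.2 ml acetone, and the sampled skin held no tumor.

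Hmgcs1 (Entrez 208715, chr13:119690379-119708260, plus strand) makes HMG-CoA, the precursor of mevalonate. Mvd (192156, chr8:122433601-122443422, minus) makes isopentenyl diphosphate from mevalonate diphosphate, and Idi1 (319554, chr13:8885501-8892451, plus) isomerizes it. Fdft1 (14137, chr14:63145150-63179578, minus) is squalene synthase, the first step committed to sterols. Sqle (20775, chr15:59315077-59331192, plus) is squalene epoxidase, and Lss (16987, chr10:76531588-76557138, plus) closes the rings to give lanosterol. Cyp51 (13121, chr5:4081145-4104746, minus) removes the 14α-methyl group of lanosterol, and Dhcr7 (13360, chr7:143823145-143848410, plus) reduces 7-dehydrocholesterol to cholesterol. Coordinates are those of the GENCODE annotation on GRCm38 (mm10).

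SREBP-2 binds sterol regulatory elements near gene starts and works there with NF-Y, which binds CCAAT. RefSeq promoters on GRCm38.p6, from 250 bases before to 50 after a start, were at hand for 6 of the 8 enzymes in 8 windows, and CCAAT on either strand lay in 6 of the 8 windows, at least 1 for each of the 6 enzymes. It lay in 9 of the 13 windows of 12 other cholesterol genes and in 37.4% of all 32851 windows. A 30-base stretch around 1 CCAAT of each enzyme is shown because it is the element of NF-Y. Stretches run 5′ to 3′ on the strand of the gene, and capitals mark CCAAT or its reverse complement ATTGG.
Hmgcs1: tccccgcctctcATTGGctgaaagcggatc
Mvd: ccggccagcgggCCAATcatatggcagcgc
Idi1: tgcctccagctgATTGGcgagcccgggcat
Lss: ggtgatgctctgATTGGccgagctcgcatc
Cyp51: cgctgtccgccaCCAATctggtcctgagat
Dhcr7: tcactgccttcaCCAATcacaggacgcagc

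These motifs began 45 bases upstream of the start in Hmgcs1 (the stretch is chr13:119690294-119690323), 27 in Mvd (chr8:122443432-122443461), 45 in Idi1 (chr13:8885549-8885578), 62 in Lss (chr10:76531531-76531560), 29 in Cyp51 (chr5:4104709-4104738) and 85 in Dhcr7 (chr7:143830117-143830146, at the most downstream of its annotated starts). The Sp1 box GGGCGG lay on either strand in 7 of the 8 windows, also at least 1 for each of the 6 enzymes, and in 10 of the 13 windows of the other genes, against 35.7% of all windows. The sterol element core TCACNCCAC was found in 1 of the 6 enzymes, Hmgcs1, where it began 137 bases upstream, and in 1.24% of all promoters. That stretch, chr13:119690204-119690233, is shown with the core in capitals.
Hmgcs1: cgtcaccgtcTCACCCCACttcccaggtcc

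The shorter core CACNCCAC, which overlaps the former, was in that enzyme alone among the 6 and in 6.24% of promoters. A looser form, TCACNTNAC, was in Dhcr7 alone among the 6 and in 3.61% of promoters, and TGACGTCA was in 0 of the 6 and in 1.79%. All were searched on both strands, and a match here is a match of letters in this window.

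In their 3′-UTRs, none of the 8 transcripts held TATTTAT, the core of the site that TTP prefers written as DNA. This heptamer was in 29.4% of 14397 tested genes with an annotated 3′-UTR. The pentamer ATTTA was counted 6 times in *Idi1*, 4 in *Hmgcs1*, 3 each in *Cyp51* and *Fdft1*, 2 in *Lss*, 1 in *Dhcr7* and 0 in *Mvd* and *Sqle*. Per kilobase of 3′-UTR this ran from 0 to 3.30 (*Idi1*), with a median of 1.25 over all tested genes. *Zfp36* itself held TATTTAT 3 times, in this annotation of the normal gene.

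Total counts ran from 21638369 to 32583189 in WT and from 19595024 to 36419553 in Zfp36ΔARE libraries. *Zfp36* rose from 2152 ± 277 to 5427 ± 766 normalized counts (SD, 5 mice a group). Its log2 fold change was 1.33, with an adjusted p of 0.0019 in edgeR's quasi-likelihood test. *Xist* had at least 14829 counts in the WT libraries and in Zfp36ΔARE replicate 1, while Zfp36ΔARE replicates 2 to 5 had 3349 to 4262 Y-linked counts, so that sex and genotype cannot be fully told apart. Cell type markers were counted against all 15543 tested genes, of which 19.1% fell and 15.3% rose. All 9 macrophage, 6 of 6 endothelial, 7 of 9 adipocyte, 8 of 9 muscle, 4 of 7 fibroblast and 3 of 7 Schwann cell markers fell. Nearer to the share of all genes, 2 of 7 basal keratinocyte and 1 of 7 sebaceous markers fell, and 1 of 6 markers of differentiated keratinocytes rose. Of those 6, however, 4 had negative log2 fold changes (median -0.36). Negative too were all 7 basal (median -0.17) and 5 of the 7 sebaceous markers (median -0.25). Of 11 hair shaft keratins 3 rose past the threshold, but all 11 had positive log2 fold changes (median 2.28). All 11 had an unadjusted p under 0.05 in edgeR's test, which 47.1% of all tested genes had. Of 9 inner root sheath markers 1 passed, with all 9 positive (median 1.36) and 7 at that unadjusted p. Of 8 proliferation markers 0 passed, with all 8 positive (median 0.31) and 3 at an unadjusted p under 0.05 in edgeR's test. The basal keratinocyte score, the mean log2 CPM of the list, was 9.28 to 9.64 in WT and 9.01 to 9.56 in Zfp36ΔARE skin, and no marker was at 0 in any library. In bulk skin, fewer cells of a type and less RNA per cell cannot be told apart.

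Per length, the enzymes stood in an order that nearly every library shared. Levels as RPKM computed here (TMM-scaled counts per kilobase of gene and per 1e6 counts), over the 10 libraries, were 95.4 ± 10.5 for *Hmgcs1*, 61.5 ± 9.19 for *Sqle*, 46.7 ± 6.99 for *Dhcr7*, 36.0 ± 5.79 for *Cyp51*, 28.3 ± 2.73 for *Fdft1*, 23.1 ± 3.97 for *Mvd*, 16.7 ± 2.97 for *Lss* and 5.35 ± 1.29 for *Idi1* (SD, n = 10). Within a library, each gene was above the next in 10 of 10 libraries, except *Sqle* above *Dhcr7* in 9 of 10. Across libraries, the range of *Hmgcs1* lay clear above that of *Sqle*, and that of *Lss* clear above that of *Idi1*, while all other neighbors overlapped. Among the tested genes, 95.6% had a lower level than *Hmgcs1* and 38.3% a lower level than *Idi1*.

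To ask whether more TTP went with another level of cholesterol synthesis transcripts, Zfp36ΔARE was compared with WT. Of the 8 enzymes, 0 passed an adjusted p of 0.05 in edgeR's quasi-likelihood test, while 34.3% of the 15543 tested genes did, 15.3% higher and 19.1% lower. None therefore passed the rule with a fold change over 2, which 8.31% of tested genes met. At an unadjusted p under 0.05 stood 1 enzyme, *Lss*, against 47.1% of tested genes. In none of the 8 did the 5 values of a group lie beyond the 5 of the other, as they did in 23.1% of tested genes. The median log2 fold change was 0.14 over the enzymes and 0.0076 over all tested genes, with 7 enzymes above 0 and *Dhcr7* below. Their 95% intervals, from -0.47 at the lowest to 0.62 at the highest bound, all lay within a doubling and a halving.

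**Figure D1:**
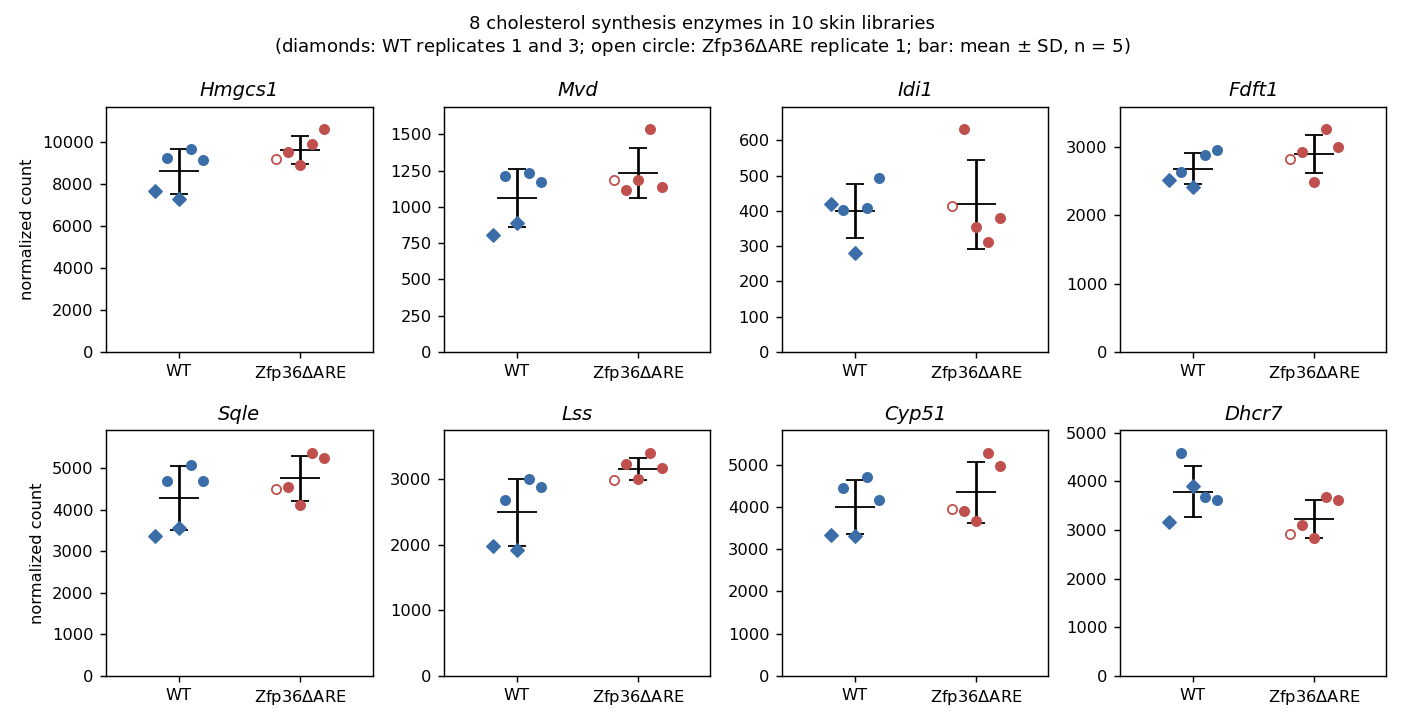
Normalized counts (vertical axes, from 0) of the 8 enzymes, in pathway order, in 5 WT and 5 Zfp36ΔARE libraries, with the mean and SD as bars. Points of both groups overlap in every panel; diamonds are WT replicates 1 and 3, which are the lowest 2 of all 10 libraries in 5 of the 8 genes, and the open circle is the Zfp36ΔARE library with *Xist* counts.

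At the entry to the pathway, *Hmgcs1* had 7664, 9242, 7253, 9679 and 9131 normalized counts in WT replicates 1 to 5 and 9161, 9495, 8893, 9907 and 10620 in Zfp36ΔARE replicates 1 to 5. WT replicates 1 and 3 were the lowest, and the other 8 libraries overlapped. Its log2 fold change was 0.16 (standard error 0.095, 95% interval -0.047 to 0.37, adjusted p = 0.20 in edgeR's quasi-likelihood test).

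*Mvd*, the last enzyme before the isoprenoid building block, had 805.9, 1211, 889.5, 1231 and 1174 normalized counts in WT and 1185, 1115, 1186, 1538 and 1139 in Zfp36ΔARE libraries. Here too WT replicates 1 and 3 were lowest, and Zfp36ΔARE replicate 4 stood above all others. Zfp36ΔARE was higher by a log2 fold change of 0.21 (standard error 0.14, interval -0.090 to 0.52, edgeR's adjusted p = 0.24).

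*Idi1*, the isomerase, had the widest spread of the 8, with 419.0, 402.3, 279.4, 408.6 and 493.2 normalized counts in WT and 412.9, 632.8, 353.6, 311.1 and 379.8 in Zfp36ΔARE libraries. The highest library was 2.26 times the lowest. Its log2 fold change was 0.064 (standard error 0.20, interval -0.38 to 0.51, edgeR's adjusted p = 0.82), and without Zfp36ΔARE replicate 2 it was -0.13. *Idi2*, a related gene beside it on the chromosome, could share reads with *Idi1*.

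*Fdft1*, at the branch to sterols, varied least. Its normalized counts were 2517, 2640, 2418, 2890 and 2951 in WT and 2818, 2920, 2486, 3267 and 3001 in Zfp36ΔARE libraries, the highest 1.35 times the lowest. Between the means stood a log2 fold change of 0.11 (standard error 0.083, interval -0.072 to 0.29, edgeR's adjusted p = 0.31).

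*Sqle*, a rate-controlling step after squalene, had 3356, 4695, 3548, 5082 and 4697 normalized counts in WT and 4487, 4536, 4114, 5366 and 5246 in Zfp36ΔARE libraries. Only WT replicates 1 and 3 lay below the Zfp36ΔARE range. The mean difference was a log2 fold change of 0.15 (standard error 0.13, interval -0.13 to 0.43, edgeR's adjusted p = 0.37).

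*Lss*, the cyclase that makes lanosterol, came nearest to the threshold. It had 1972, 2685, 1922, 2996 and 2881 normalized counts in WT and 2993, 3228, 3009, 3402 and 3167 in Zfp36ΔARE libraries, so that 4 of 5 WT libraries lay below all Zfp36ΔARE libraries and WT replicate 4 lay just above the lowest of them. The log2 fold change was 0.34, which is 1.27-fold (standard error 0.13, interval 0.062 to 0.62), at an unadjusted p of 0.021 and an adjusted p of 0.058 in edgeR's quasi-likelihood test. The exact two-sided permutation test of the mean log2 value gave p = 0.016, where 0.0079 is the smallest that 5 against 5 allow, and the other 7 enzymes gave 0.087 to 0.87. *Lss* passed with DESeq2 (adjusted p = 0.032), with limma-voom (0.049) and in edgeR without WT replicate 4 (0.030) or 5 (0.044), and its log2 fold change was 0.15 (adjusted p = 0.15) without WT replicates 1 and 3.

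*Cyp51*, the lanosterol demethylase, had 3351, 4456, 3310, 4712 and 4179 normalized counts in WT and 3959, 3902, 3664, 5294 and 4979 in Zfp36ΔARE libraries. WT replicates 2, 4 and 5 lay within the Zfp36ΔARE range, and WT replicates 1 and 3 below it. A log2 fold change of 0.12 resulted (standard error 0.14, interval -0.18 to 0.42, edgeR's adjusted p = 0.49).

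*Dhcr7*, at the last step of this branch, was the only enzyme with a lower mean in Zfp36ΔARE skin. It had 3156, 4591, 3908, 3674 and 3611 normalized counts in WT and 2928, 3100, 2843, 3690 and 3612 in Zfp36ΔARE libraries, where 3 of 5 lay below every WT library. Its log2 fold change was -0.23 (standard error 0.11, interval -0.47 to 0.014, edgeR's adjusted p = 0.12). Without WT replicate 2, its highest library, it was -0.15, and with the sebaceous gland score as a covariate it was -0.035, where that score ran from 5.75 to 6.22 in WT and from 5.54 to 5.96 in Zfp36ΔARE skin.

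Replicate 1, the Zfp36ΔARE mouse with *Xist* counts, lay within the range of the other 4 Zfp36ΔARE libraries in 7 of 8 enzymes and just below it in *Lss*. A lone library cannot show the part of sex in these genes, which was not tested.

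**Figure D2:**
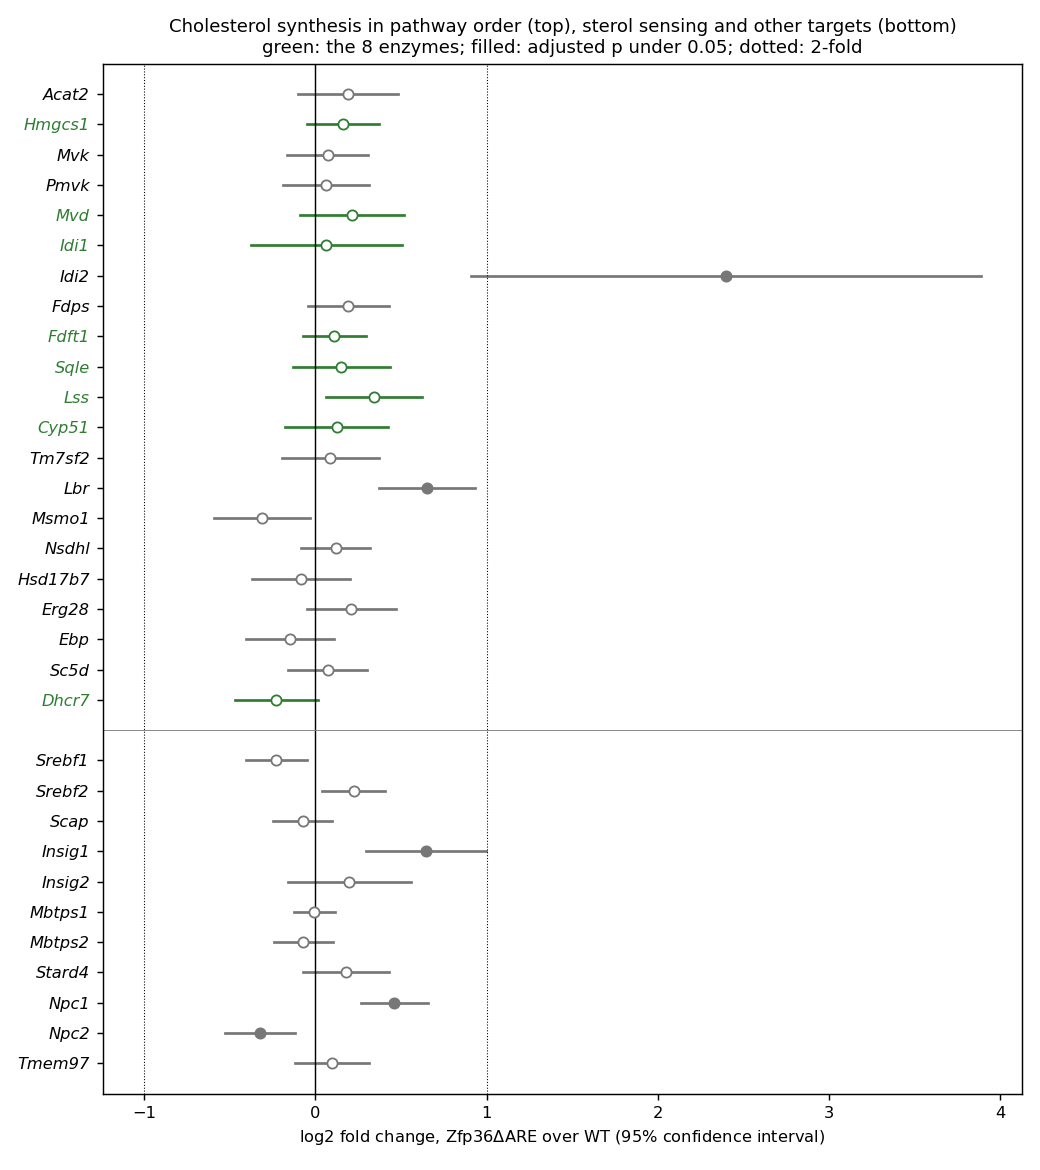
Log2 fold change of Zfp36ΔARE over WT (horizontal axis, points) with 95% confidence intervals (lines) for cholesterol synthesis genes in pathway order and, below the grey line, genes of sterol sensing, uptake and transport. The 8 enzymes in green are all open circles, meaning an adjusted p of 0.05 or more, and filled circles are *Lbr*, *Idi2*, *Insig1*, *Npc1* and *Npc2*.

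Of the other 15 genes of the pathway, 2 rose, 0 fell and 13 did not pass in edgeR's test, with a median log2 fold change of 0.088. The count of rises is near the 15.3% of all tested genes. *Lbr*, a sterol C14-reductase that also anchors chromatin at the nuclear lamina, rose from 2121 ± 400 to 3333 ± 291 normalized counts (SD, 5 mice a group), at a log2 fold change of 0.65 (adjusted p = 0.0078 in edgeR's test). *Idi2* rose from 11.0 ± 4.77 to 59.8 ± 67.1, on few counts and with 177.9 in Zfp36ΔARE replicate 3. Around the 8 enzymes, log2 fold changes that did not pass were 0.19 for *Acat2*, 0.072 for *Mvk*, 0.063 for *Pmvk* and 0.19 for *Fdps*. After lanosterol they were 0.088 for *Tm7sf2*, -0.31 for *Msmo1* (adjusted p = 0.078), 0.12 for *Nsdhl*, -0.084 for *Hsd17b7*, 0.21 for *Erg28*, -0.15 for *Ebp* and 0.071 for *Sc5d*.

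Of the machinery that switches the 8 enzymes on, 1 of 7 genes rose, again near that share. *Insig1*, the endoplasmic reticulum anchor that holds SREBP back when sterols are ample and is itself an SREBP target, had 1700, 2878, 2171, 3331 and 2770 normalized counts in WT and 4000, 4319, 4432, 3761 and 3603 in Zfp36ΔARE libraries, which did not overlap. Its log2 fold change was 0.65 (standard error 0.16, edgeR's adjusted p = 0.015), and its 3′-UTR held TATTTAT 2 times. The call ended with the hair shaft score as a covariate (0.33, edgeR's adjusted p = 0.37) and with the sebaceous gland score (0.65, 0.074). Over all tested genes, 34.3% passed without a covariate, 0.212% with the hair shaft score and 4.61% with the sebaceous gland score. The other genes of the machinery did not pass in the fit without a covariate. They were at 0.22 for *Srebf2* (edgeR's adjusted p = 0.058), -0.23 for *Srebf1* (0.051), -0.073 for *Scap*, 0.20 for *Insig2*, -0.0059 for *Mbtps1* and -0.071 for *Mbtps2*. Among 6 genes of sterol uptake and transport, 1 rose and 1 fell, near the 15.3% that rose and 19.1% that fell over all tested genes. These were the lysosomal exporter *Npc1* at 0.46 (edgeR's adjusted p = 0.0076) and its soluble partner *Npc2* at -0.32 (0.023). The sterol carrier *Stard4* was at 0.18 and *Tmem97* at 0.097, neither of which passed.

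**Figure D3:**
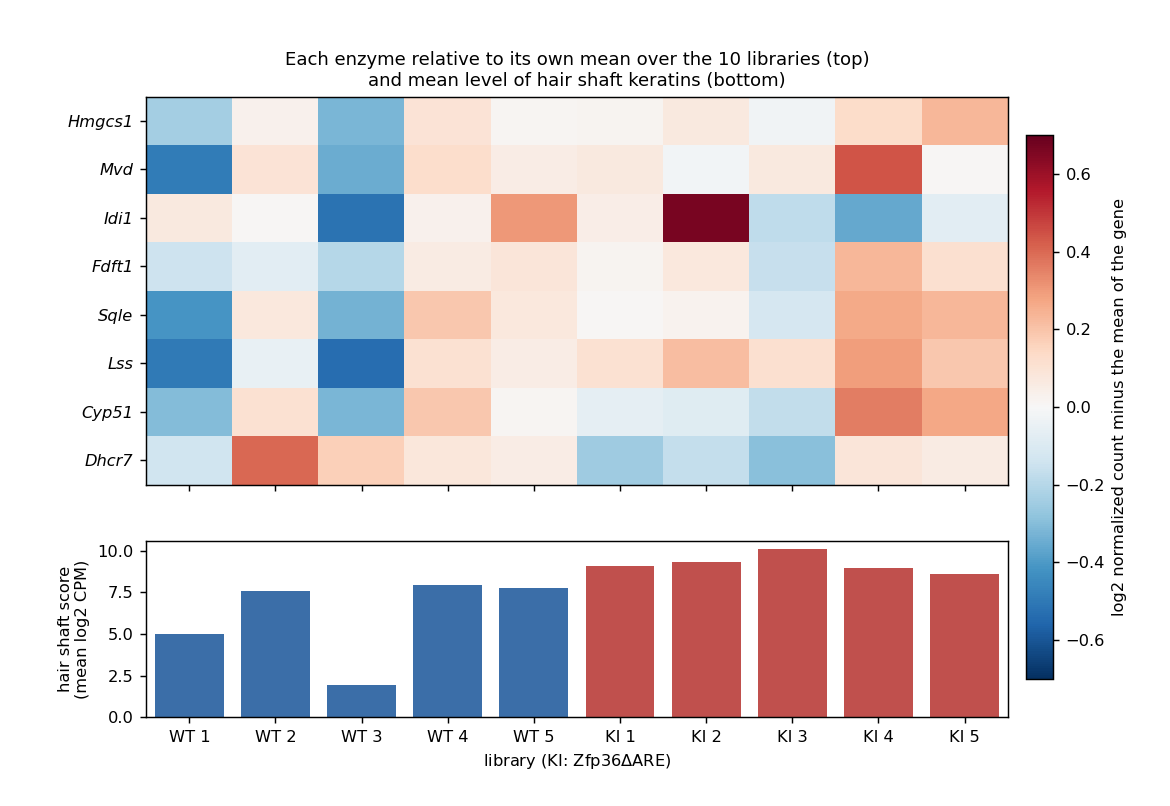
Log2 normalized count of each enzyme minus its own mean over the 10 libraries (color, top) and the hair shaft score of each library, the mean log2 CPM of 11 hair keratins (bars, bottom); KI denotes Zfp36ΔARE. WT replicates 1 and 3 are blue for 7 of 8 enzymes each and have the lowest hair shaft scores, 5.03 and 1.95.

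Taken over the 8 enzymes, the libraries farthest from the mean were WT replicates 1 and 3. In WT replicate 1 they lay on average 0.27 below their own means on the log2 scale, with 7 of 8 below, and in WT replicate 3 0.30 below, again with 7 of 8. In WT replicates 4 and 5 all 8 were above their means, and Zfp36ΔARE replicate 4 was highest for 5 of the 8. Over the 10 libraries, the 15 pairs of *Hmgcs1*, *Mvd*, *Fdft1*, *Sqle*, *Lss* and *Cyp51* had correlations of log2 values from 0.74 to 0.95 (median 0.86). Pairs with *Idi1* had -0.29 to 0.32 and pairs with *Dhcr7* had -0.29 to 0.39 (median 0.082). For deviations from the group means, pairs with *Dhcr7* had -0.30 to 0.69 (median 0.50), those with *Idi1* -0.30 to 0.37 and the 15 pairs 0.68 to 0.95 (median 0.84). These describe 10 libraries that share their scaling, and without WT replicates 1 and 3 the 15 pairs ranged from 0.18 to 0.97 (median 0.62).

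The low pair of WT libraries stood apart from the other WT libraries in several cell type scores. Skeletal muscle scores were 11.0 and 11.9 in WT replicates 1 and 3 and 9.64 to 10.7 in the other 3, adipocyte scores 7.32 and 7.88 against 6.79 to 7.06, and fibroblast scores 9.92 in both against 9.04 to 9.46. Endothelial and Schwann cell scores were also highest in these libraries, and inner root sheath scores lowest, at 8.90 and 6.46 against 10.2 to 10.6. The part of these in the enzyme values was not tested. Hair shaft scores were 5.03 and 1.95 in WT replicates 1 and 3, 7.55, 7.93 and 7.73 in WT replicates 2, 4 and 5, and 8.59 to 10.1 in Zfp36ΔARE libraries. Without WT replicates 1 and 3, the median log2 fold change of the 8 enzymes was 0.0037, with values of 0.040 for *Hmgcs1*, 0.030 for *Mvd*, -0.054 for *Idi1*, 0.035 for *Fdft1*, -0.023 for *Sqle*, 0.15 for *Lss*, -0.030 for *Cyp51* and -0.29 for *Dhcr7*. Those libraries were the lowest of all in 5 of the 8 enzymes, so leaving them out was bound to lower the log2 fold change there. With the hair shaft score as a covariate, the median was -0.049, *Lss* was at 0.044 and *Dhcr7* at -0.23, and 0 of 8 passed by edgeR's adjusted p (0 at an unadjusted p under 0.05). In that fit 33 of all 15543 tested genes passed (0.212%), and 2324 had an unadjusted p under 0.05, so few genes of any kind passed with this score. That score did not overlap between the groups, so hair content and genotype cannot be fully told apart.

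**Figure D4:**
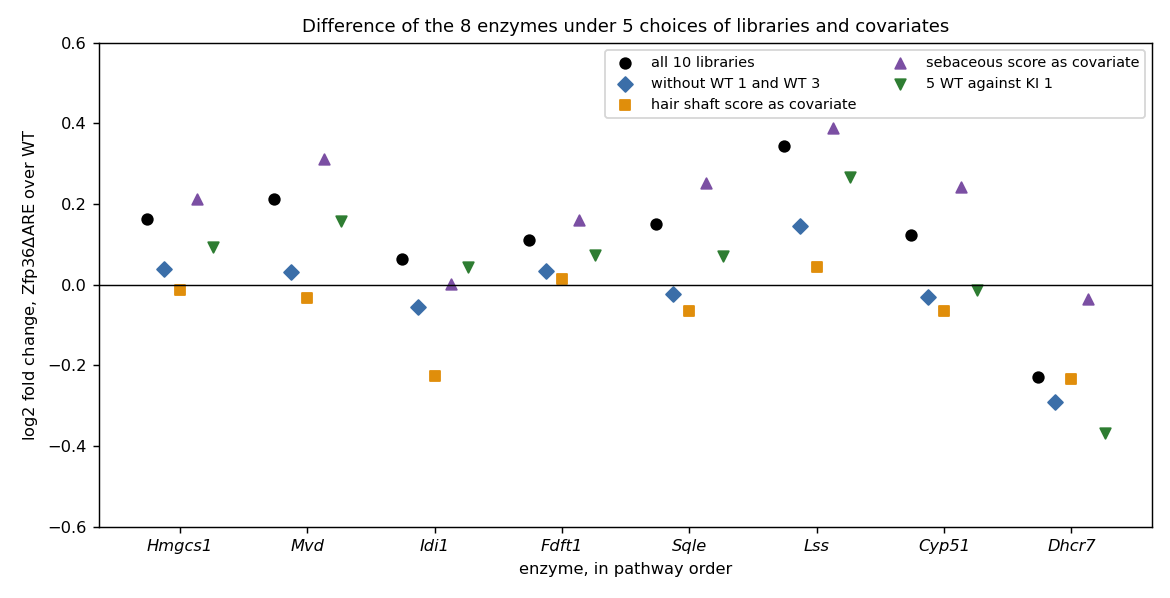
Log2 fold change of Zfp36ΔARE over WT (vertical axis) for the 8 enzymes with all 10 libraries, without WT replicates 1 and 3, with the hair shaft or the sebaceous gland score as a covariate, and for the 5 WT libraries against Zfp36ΔARE replicate 1 (KI 1). Without WT replicates 1 and 3 all but *Lss* (0.15) and *Dhcr7* (-0.29) lie between -0.054 and 0.040.

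By correlation with the mean log2 value of the 8 enzymes over the 10 libraries, among 13683 genes with a mean of at least 50 normalized counts, the most alike were *Kctd1* (0.966), *4833423E24Rik* (0.960), *Psd4* (0.953), *Gstm6* (0.948) and *Myo5b* (0.931). For deviations from the group means they were *4833423E24Rik* (0.981), *Kctd1* (0.964), *Zfp410* (0.962), *Psd4* (0.962) and *Dsg1b* (0.955). No gene of the cholesterol and SREBP lists was among these. The nearest of them over 10 libraries were *Acat2* (0.887, rank 30), *Mvk* (0.886, rank 36) and *Stard4* (0.871, rank 47), while *Insig1* was at 0.665 and *Srebf1* at -0.181.

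**Figure D5:**
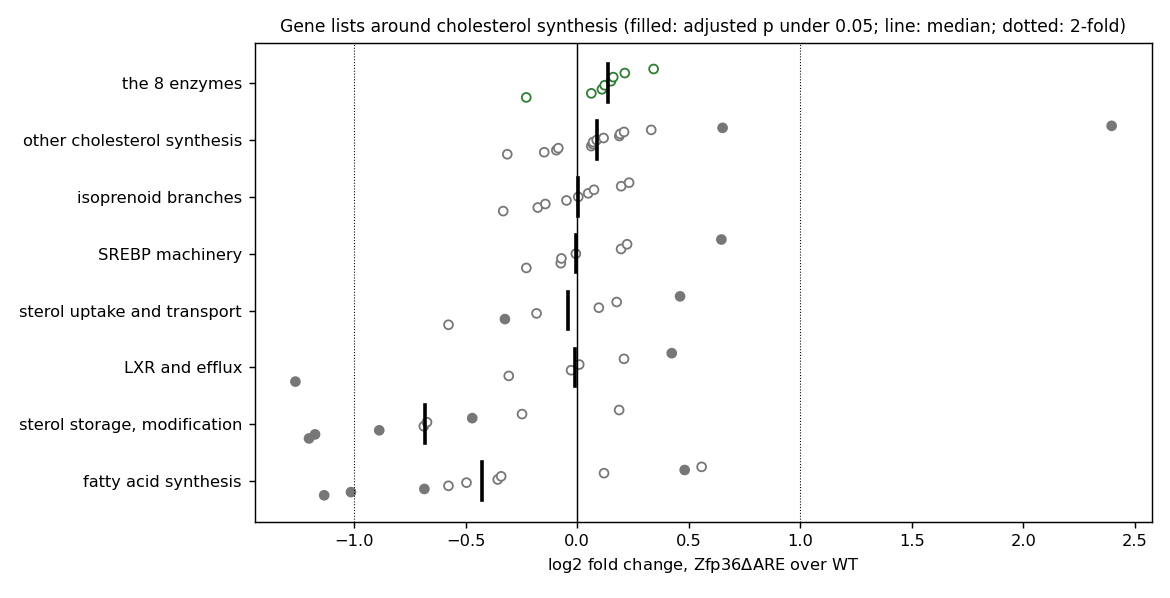
Log2 fold change of Zfp36ΔARE over WT (horizontal axis) for each gene of 8 lists, with the list's median as a black line and filled circles for an adjusted p under 0.05. The 8 enzymes lie between -0.23 and 0.34, and the lists of sterol storage and of fatty acid synthesis have medians of -0.68 and -0.43.

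Related lipid lists were counted in the same fit. Isoprenoid branch genes, which draw on the same intermediates, had 0 of 9 past the threshold in edgeR's test (1 at an unadjusted p under 0.05) and a median of 0.0051. The 3 with most counts, *Fnta*, *Nus1* and *Coq2*, were at -0.048, 0.0051 and -0.14. In sterol storage and modification, 4 of 8 tested genes fell and 0 rose (median -0.68), among them the lysosomal lipase *Lipa* (log2 fold change -1.18, adjusted p = 0.0070) and *Soat2* (-1.20, adjusted p = 0.035, on few counts). The other two, named after their values were seen, were *Cyp27a1* (-0.89) and *Nceh1* (-0.47), while *Soat1* (-0.25) and *Sult2b1* (0.19) did not pass. Of 10 fatty acid synthesis genes, 3 fell, *Fasn* (-1.13, adjusted p = 0.021), *Scd1* (-1.01, 0.0081) and *Elovl6* (-0.68, 0.024), and 1 rose, *Scd2* (0.48, named after its value was seen), with a median of -0.43, where 19.1% of all tested genes fell. WT replicate 3 had 57780 normalized counts of *Fasn* against 15680 to 31660 in the other WT libraries, and without it the log2 fold change of *Fasn* was -0.75 (edgeR's adjusted p = 0.019). Of 6 genes of the oxysterol receptor LXR and sterol efflux, 1 fell and 1 rose, near the 19.1% and 15.3% of all tested genes. The receptor *Nr1h3* fell (-1.26, edgeR's adjusted p = 0.0040) and *Mylip* rose (0.42, named after its value was seen), and *Apoe* (-0.027), *Abca1* (-0.31) and *Nr1h2* (0.0092) did not pass. Macrophage scores were also lower, at 5.66 to 6.77 in WT and 4.70 to 5.42 in Zfp36ΔARE skin. In the same order, adipocyte scores were 6.79 to 7.88 and 6.14 to 6.47, and endothelial scores 4.41 to 5.58 and 3.72 to 4.09. Schwann cell scores were 4.68 to 5.08 and 4.40 to 4.57, while hair shaft scores were higher, at 1.95 to 7.93 and 8.59 to 10.1. None of these scores overlapped between the groups, and their part in the values of the lipid genes was not tested.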

How the data were processed

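Per the labels and the methods of the study, the authors removed reads of mean quality below 20, aligned the rest with STAR 2.5.2b to mm10, counted fragments with featureCounts of Subread 1.5.0-p1 and deposited raw counts, which they tested with DESeq2. Strand and multi-mapping settings are not given in the sources used here. Rows without a gene name (2, with 7.38e-05% of counts) were left out.

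Counts were scaled by TMM, filtered with filterByExpr and tested with edgeR 4.0.16 (quasi-likelihood, robust, genotype only; R 4.3.3), with Benjamini-Hochberg adjustment over 15543 genes, after a check on simulated data. Intervals are 95%. Normalized counts are counts scaled by TMM to the mean library size, and levels per length use the deposited gene length. Total counts were 19595024 to 36419553, with a median biological coefficient of variation of 14.9%.

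The enzymes and lists were chosen with earlier results of these data known. Named were the 8 enzymes, genes of the cholesterol, SREBP and uptake lists (some, counted in the lists, are not reported by name here), up to 3 genes with most counts of the other lipid lists, those past the threshold at 2-fold, and 5 genes most alike by each measure. Alternatives were DESeq2 1.42.0, limma-voom (limma 3.58.1), other scalings and filters, a replicate block, left-out libraries, marker scores as covariates, and libraries with *Xist* counts. *Erg28* is listed under an older symbol, matched by gene ID. *Sts* and *Flg* were not analysed here.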

Additional observations from a re-analysis of the deposited data

Results flagged for a closer look

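In groups of 5, a library was marked where its gap to the nearest other exceeded 0.71 of the group's range, over the 8 enzymes and 15 other genes that passed, 46 groups in all. Chance marks about 1 in 20 groups, here 2.3, and 3 were marked. *Mvd* in Zfp36ΔARE replicate 4 (1538 normalized counts against 1115 to 1186 in the other 4) had a gap of 0.833 of the range, the only one among the 16 groups of the enzymes. *Idi2* in Zfp36ΔARE replicate 3 (177.9 against 17.1 to 48.1) had 0.808. *Scd1* in WT replicate 3 (150100 against 67570 to 86800) had 0.767.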

How the results depend on the processing

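Each result was recomputed under 22 alternatives. The count of enzymes past the threshold was 0, and 1 (*Lss*) with DESeq2, limma-voom and the replicate block, and 0 to 1 with each library left out (1 without WT replicate 4 or 5). The log2 fold change of *Lss* was then 0.35, 0.37 and 0.37, and 0.26 to 0.42 with each library left out. No enzyme passed together with a fold change over 2 under any alternative. Signs turned without WT replicates 1 and 3 in *Sqle* (-0.023), *Cyp51* (-0.030) and *Idi1* (-0.054); with the hair shaft covariate in *Hmgcs1* (-0.013), *Sqle* (-0.066), *Cyp51* (-0.065), *Idi1* (-0.23), *Mvd* (-0.033) and the median of the 8 (-0.049); and in *Cyp51* (-0.013) for WT against Zfp36ΔARE replicate 1, a lone library assumed to vary like the others. *Idi1* ran from -0.13 to 0.15 with each library left out. *Fdft1*, *Lss* and *Dhcr7* kept their direction in all 22.

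Of the other 15 cholesterol genes, 2 passed, 3 with upper-quartile scaling or without WT replicate 1, 1 with limma-voom, with at least 10 counts in every library or with the block, and 0 with the hair shaft or the sebaceous covariate or in *Xist* libraries. Of the 6 other lipid lists 13 genes passed, 7 with the block, 1 with the hair shaft and 3 with the sebaceous covariate, 0 in *Xist* libraries, and 8 to 15 with each library left out (8 without Zfp36ΔARE replicate 2). *Fasn* and *Elovl6* lost their calls with the block (adjusted p = 0.065 and 0.079 in edgeR). *Nr1h3* lost its call in 1 alternative, *Scd2* and *Soat2* in 11 each, and none of the genes that passed turned its direction. Over all genes 5335 passed, 2740 with the block, 2504 without WT replicates 1 and 3, 33 and 716 with the covariates, 0 in *Xist* libraries (2572 at an unadjusted p under 0.05 in edgeR), and 3333 to 5349 with each library left out (3454 without WT replicate 1, 3333 and 3506 without Zfp36ΔARE replicates 2 and 3). The cause was not tested. Equal replicate numbers did not deviate together (correlations -0.172 to 0.082), so the block is not a pairing of mice. With 5 mice a group, what could be resolved differed by gene, and the 95% interval beside each enzyme's value bounds its difference.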
